A study of Mus musculus with 6 samples.

Results

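The cytosolic ribosomal proteins are the protein building blocks of the ribosome outside mitochondria. Their genes were taken by symbol: Rpl (large subunit) or Rps (small subunit) followed by a number, with an optional a, x or l ending, together with Rplp0, Rplp1, Rplp2 and Rpsa. The rule found 84 of the 24016 genes in the table. Of these, 46 were core large subunit genes, 31 were core small subunit genes and 7 were -like paralogs (Rps27l, Rpl22l1, Rpl7l1, Rps4l, Rpl3l, Rpl10l and Rpl39l). The rule used symbols alone.

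RNA was measured in basal cells of the mouse esophageal epithelium, sorted by flow cytometry into GFP-minus cells (labelled Krt15-) and GFP-plus cells (labelled Krt15+), with 3 libraries in each group. Mice of both groups carried Krt15-CrePR1, a Cre recombinase that is active with RU486 and is driven by the Krt15 promoter, and the R26mTomato/mGFP reporter. All received 1 mg of RU486, and cells with high CD29 (integrin beta-1, a basal marker) were sorted 24 h later. GFP therefore records recombination, not the level of Krt15, and GFP-minus cells may include cells with an active promoter that did not recombine. The labels give no age or strain, and do not say that each library is a different mouse. The sample names in the labels share a code between the GFP-minus and the GFP-plus library of the same replicate number, and whether a code stands for 1 mouse is not stated. P-values therefore measure only how much these libraries vary, which may be technical variation.

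Ribosomes translate messenger RNA into protein. The small subunit reads the codons, the large subunit forms the peptide bonds, and each particle normally holds a single copy of almost every core protein, so the genes are usually expressed together and at high level. Their mRNAs typically begin with a C followed by a run of pyrimidines, the terminal oligopyrimidine (TOP) motif, through which mTOR signalling controls their translation. Some core genes have paralogs that are expressed in particular tissues: Rpl3l is known from heart and skeletal muscle, and Rpl10l and Rpl39l from testis.

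The start sites of members named in the results are shown because the TOP motif is known from this family. The capitals mark the longest run anywhere in the window, which need not lie at the start and need not be a TOP motif. Each window holds 10 bases before the annotated start and 20 from it, for 30 bases in all, written 5′ to 3′ on the gene's strand, with the longest run of C and T in capitals (RefSeq, GRCm38.p6). Rpl34 and Rpl22 have 2 annotated starts each, and the start with the longest run is shown. The Rpl22 window lies before the GENCODE gene, which begins at chr4:152325742.
Rpl27, chr11:101442235-101442264, plus strand: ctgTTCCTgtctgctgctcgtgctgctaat
Rpl34, chr3:130730318-130730347, minus strand: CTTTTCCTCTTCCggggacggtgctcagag
Rpl38, chr11:114668570-114668599, plus strand: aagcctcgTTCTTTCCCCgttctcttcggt
Rps13, chr7:116334171-116334200, minus strand: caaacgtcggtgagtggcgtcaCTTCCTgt
Rpl35, chr2:39005112-39005141, minus strand: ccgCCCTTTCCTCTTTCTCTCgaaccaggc
Rpl13, chr8:123102340-123102369, plus strand: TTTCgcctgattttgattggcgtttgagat
Rps12, chr10:23787190-23787219, minus strand: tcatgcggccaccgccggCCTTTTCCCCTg
Rpl22, chr4:152324426-152324455, plus strand: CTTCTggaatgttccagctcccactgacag
Rpl22l1, chr3:28805498-28805527, plus strand: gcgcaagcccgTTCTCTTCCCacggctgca
In these windows Rpl35, Rpl34, Rps12, Rpl38 and Rpl22l1 held a run of 18, 13, 11, 10 and 10 pyrimidines. In Rpl13 the longest run had 4. The annotated start itself was a C followed by 4 further pyrimidines in Rpl35 and Rpl38 alone.

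Promoter sequence was found for 63 of the 84 genes, 57 of them core genes. A gene with several annotated starts was counted when any of them met the condition, here and over all genes. A run of at least 8 pyrimidines lay within the 30-base window in 23 of the 57 core genes (40.4%), against 13.01% of all 27025 genes in the same RefSeq table. The annotated start itself was a C followed by 4 further pyrimidines in 13 core genes (22.8%), against 3.01% of all genes. The letters CCGGAAG, which resemble the binding site of ETS factors, were present on either strand within the 300 bases around the start (250 before it, 50 from it) in 24 core genes (42.1%), against 9.93% of all. TATAAA, the TATA box, was present on either strand in 6 (10.5%), against 15.7% of all. These 2 motifs cannot overlap each other. Presence of these letters is a description of the annotated sequence and not of a site in use.

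Reads may be shared between genes where their sequences are identical. The coding sequences of Rps27 and of Rps27l, the most abundant of the -like genes, are therefore shown in full. Capitals in Rps27l mark the bases that differ from Rps27 (GENCODE M21, GRCm38; Rps27 at chr3:90212522-90213651 on the minus strand and Rps27l at chr9:66946086-66949516 on the plus strand; both protein coding).
Rps27: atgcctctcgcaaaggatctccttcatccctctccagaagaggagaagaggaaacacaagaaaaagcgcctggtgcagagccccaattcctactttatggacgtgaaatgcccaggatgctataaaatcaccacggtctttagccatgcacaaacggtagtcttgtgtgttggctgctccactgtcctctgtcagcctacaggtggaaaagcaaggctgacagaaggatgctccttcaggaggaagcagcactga
Rps27l: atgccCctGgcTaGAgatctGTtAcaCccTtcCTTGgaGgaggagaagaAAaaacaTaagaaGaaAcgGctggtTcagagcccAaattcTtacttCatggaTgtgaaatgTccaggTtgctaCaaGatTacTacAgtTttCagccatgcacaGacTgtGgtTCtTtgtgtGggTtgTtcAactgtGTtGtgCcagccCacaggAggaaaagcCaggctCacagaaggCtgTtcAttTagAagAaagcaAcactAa
Of 255 coding bases, 194 were identical (76.1%) and 61 differed, spread along the whole sequence. Rps27rt, a protein-coding gene at chr9:114982366-114982739 on the minus strand that lies outside the naming rule, had a coding sequence identical to that of Rps27 at all 255 bases. Values of Rps27 and Rps27rt are therefore uncertain, since their division of reads depends on bases outside the coding part. Coding identity was 72.7% for Rpl22l1 with Rpl22 and 64.9% for Rpl7l1 with Rpl7. For genes near 0 FPKM it was 75.2% for Rpl3l with Rpl3, 84.8% for Rpl10l with Rpl10 and 85.3% for Rpl39l with Rpl39.

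The GFP-minus replicate 1 library stood apart from the other 5. It reached 1 FPKM (fragments per kilobase of transcript per mega (M) of mapped fragments) in 3247 genes, against 6906 to 9194 in the others, at an estimated depth of 29.0 M fragments within the range of 27.3 to 42.1 M over all libraries. The 8 basal keratinocyte markers were above 0 in every library, at a summed 3859 to 14089 FPKM, mostly Krt5, Krt14 and Krt15. Trp63, Itga6 and Itgb1 (CD29) were lowest in GFP-minus replicate 1, at 0.46, 1.46 and 1.03 FPKM. Krt15 and Col17a1 were lowest there too, at 2350 and 15.8 FPKM, and Itgb4 was highest there, at 17.2 FPKM. Suprabasal markers (Krt4, Krt13, Krtdap, Sbsn) were abundant as well, at a summed 7375 to 51067 FPKM, and Krtdap was listed at 0 in GFP-minus replicate 3. Of the 8 fibroblast markers, 1, 2 and 0 were at 0 in GFP-minus and 7, 6 and 4 in GFP-plus. Their summed levels were 104, 373 and 753 FPKM against 167, 176 and 71.2 FPKM, the GFP-plus sums being almost all Dcn. Without Dcn the other 7 summed to 89.9, 106 and 295 FPKM in GFP-minus and to 0, 0.019 and 0.087 FPKM in GFP-plus, so that the groups did not overlap, and Col1a2, Lum and Pdgfra were at 0 in all GFP-plus libraries. Of the 8 leukocyte markers, 5, 2 and 1 were at 0 in GFP-minus and 6, 2 and 4 in GFP-plus, at a summed 542, 952 and 449 FPKM against 7280, 99.9 and 56.1 FPKM, the 7280 being almost all Lyz2. Lyz2 stood at 339, 0 and 307 FPKM in GFP-minus and 7279, 63.4 and 28.3 FPKM in GFP-plus. Of the 6 leukocyte markers averaging at least 1 FPKM, 5 had a lower mean log2 level in GFP-plus, against 31.4% of all genes tested. Only Lyz2 had a higher one. The groups did not overlap in 1 of the 6, Tyrobp (16.7%, against 2.44%). The 4 endothelial markers were at 0 in 5 libraries and summed to 4.03 FPKM in GFP-minus replicate 3. The part of these other cells in the ribosomal protein values was not tested. In bulk libraries such as these, fewer cells of a type and less RNA per cell cannot be told apart.

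Ribosomal protein mRNAs made up a large part of every library. Their summed FPKM was 25.3%, 12.6% and 14.5% of the total in GFP-minus and 14.3%, 13.2% and 13.0% in GFP-plus (means 17.5% ± 6.83 and 13.5% ± 0.71, SD, n = 3 each). GFP-minus replicate 1 was far above the others, and the other 2 GFP-minus libraries lay on either side of the 3 GFP-plus libraries. The median core gene of the large subunit stood at 1964, 788 and 913 FPKM in GFP-minus and at 898, 745 and 772 FPKM in GFP-plus. For the small subunit the medians were 4005, 1000 and 1482 FPKM in GFP-minus and 1606, 1040 and 1124 FPKM in GFP-plus. Both subunits were thus highest in GFP-minus replicate 1, the library with the fewest genes detected.

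**Figure D1:**
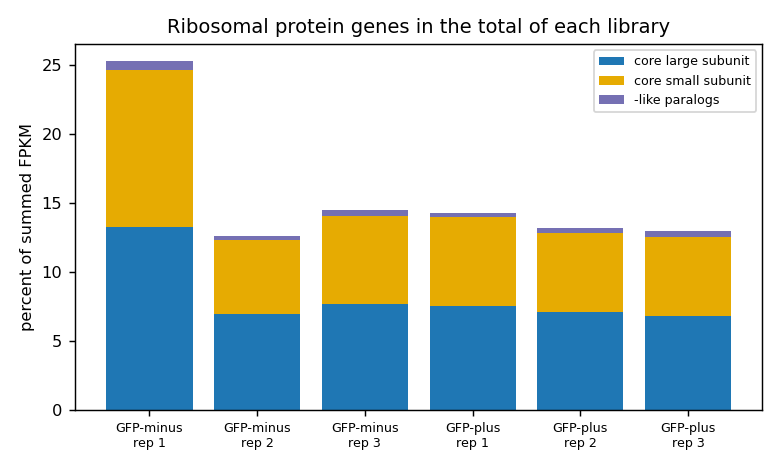
Ribosomal protein genes as a percent of the summed FPKM of each library, split into core large subunit, core small subunit and -like genes, with the library on the horizontal axis. GFP-minus replicate 1 stands at 25.3% and the other 5 libraries lie between 12.6% and 14.5%.

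**Figure D2:**
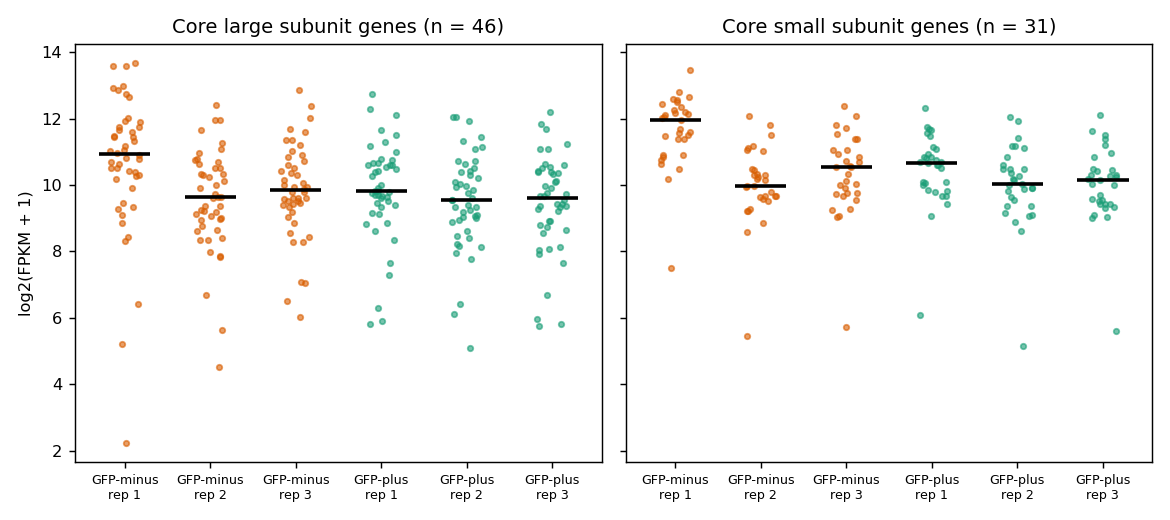
Level of each core gene, as log2(FPKM + 1), in each of the 6 libraries, with large and small subunit genes in separate panels and the median as a bar. Most core genes are highest in GFP-minus replicate 1, and a few genes lie far below the rest in every library.

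The comparison asks whether recombined and unrecombined basal cells differ in the expression of this family. Differences are GFP-plus minus GFP-minus on the log2(FPKM + 1) scale. Of the 84 genes, 81 passed the filter of a mean of at least 1 FPKM, 77 core and 4 -like. None of them was called by limma at an adjusted p below 0.05, nor was any of the 9423 genes tested (0%), and the lowest adjusted p among ribosomal protein genes was 0.793. With the replicate number as a block, which would apply if the shared codes stand for mice, limma also called 0 genes, and the lowest adjusted p among these genes was 0.394. At an unadjusted p below 0.05, 2 core genes were lower in GFP-plus, Rpl38 and Rpl35, against 0.743% of all genes, and 0 were higher, against 3.18%.

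Although no gene passed, the differences of the core genes lay mostly on the same side of 0. They were below 0 in 73 of 77 core genes (42 of 46 large, 31 of 31 small), against 31.4% of all genes tested. The median difference was -0.44 for the large and -0.49 for the small subunit, against 0.63 for all genes. GFP-minus replicate 1 was the highest of the 6 libraries in 67 of the 77 core genes, against 13.2% of all genes. Its level exceeded the mean of the other 5 libraries by more than 2-fold in 48 core genes, which was not counted over all genes. On the log2 scale its median excess was 1.27 in core genes, against -1.46 over all genes tested. Without that library the medians were -0.13 and -0.06 and the difference was below 0 in 50 of 77 core genes (32 large, 18 small), against 49% of all genes. Without GFP-minus replicate 2 the medians were -0.72 and -0.85. The medians were also -0.91 and -0.96 after upper-quartile scaling, -0.92 and -0.97 after median-of-ratios scaling, -0.11 and -0.05 after quantile normalization, and -0.22 and -0.18 with library weights.

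**Figure D3:**
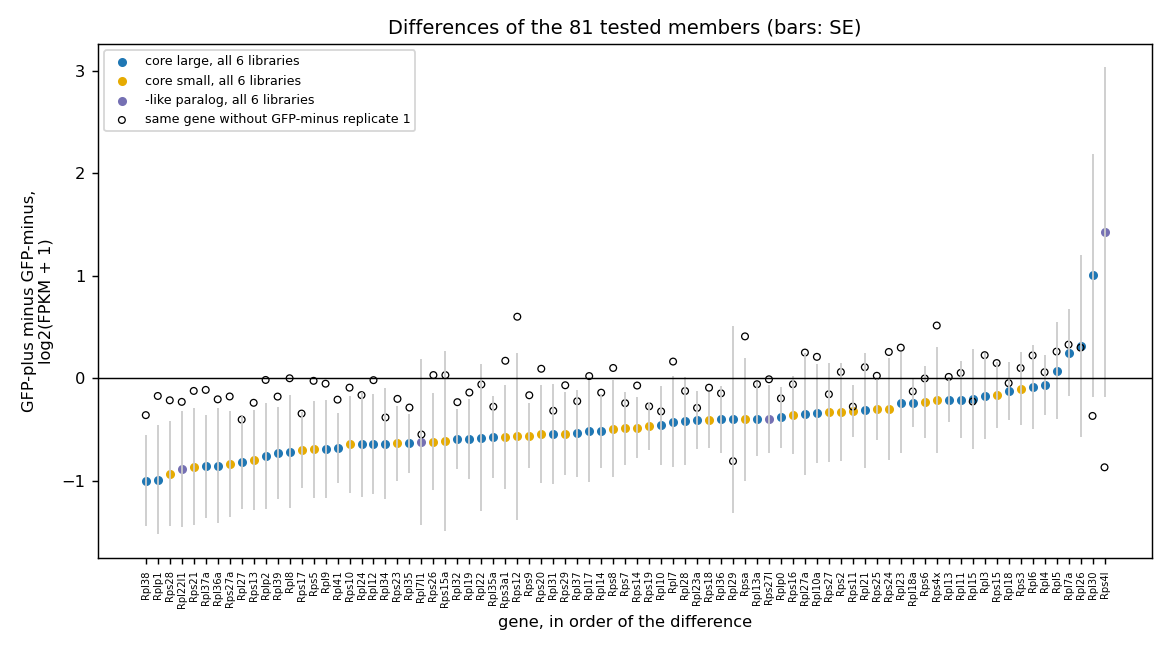
Difference between GFP-plus and GFP-minus (log2 scale) of each tested ribosomal protein gene, in order of the difference, for all 6 libraries (filled points with the standard error from limma) and without GFP-minus replicate 1 (open points). With all 6 libraries 73 of 77 core genes lie below 0, and without that library 50 of 77 do.

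The excess of GFP-minus replicate 1 was similar in genes with short and with long annotated transcripts. Lengths are medians over a gene's annotated coding transcripts (GENCODE), and which of them these cells expressed is not known. Over the 77 core genes, the log2 difference between this library and the mean of the other 5 had Pearson's r of 0.01 and Spearman's rho of -0.06 with the median length of the coding transcripts. These are descriptions across genes that share the same libraries. Its median was 1.27 in the 26 genes with the shortest transcripts (368 to 612 bases), 1.22 in the middle 25 and 1.32 in the 26 with the longest (854 to 3706 bases). Over all core genes the median excess was 1.27, at 1.14 for the large and 1.46 for the small subunit, while over all genes tested it was -1.46.

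Replicate number also went with the level of many of the genes. Both replicate 1 libraries lay above the other 4 in 34 of the 81 tested genes, against 2.93% of all genes tested, and below them in 1 (Rps4l), against 14.9%. Both replicate 2 libraries lay below the other 4 in 26 of the 81, against 2.57%, and both replicate 3 libraries did so in 6 (Rps6, Rps2, Rpl4, Rps3, Rpl3 and Rpl10), against 2.39%. Rpl29, a small basic protein of the large subunit named after its values were seen, went the other way. It stood at 83.6, 430 and 89.8 FPKM in GFP-minus and at 78.3, 337 and 52.6 FPKM in GFP-plus, so that both replicate 2 libraries were high, which 18.4% of all genes showed.

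The P-stalk of the large subunit, which recruits the GTPases of translation, is formed by Rplp0, Rplp1 and Rplp2. Rplp0 was measured at 2811, 1983 and 1838 FPKM in GFP-minus and at 1543, 2245 and 1333 FPKM in GFP-plus, and the groups overlapped. Rplp1 stood at 12338, 2168 and 2341 FPKM in GFP-minus and at 2322, 1588 and 2161 FPKM in GFP-plus. Its difference was -0.99 (SE 0.53, limma adjusted p = 0.793) and came to -0.17 without GFP-minus replicate 1. Rplp2 had 7680, 1289 and 2074 FPKM in GFP-minus and 2016, 1360 and 1538 FPKM in GFP-plus. The acidic stalk proteins Rplp1 and Rplp2 were thus both several times higher in GFP-minus replicate 1 than elsewhere, and Rplp0, which anchors them, only slightly.

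By mean FPKM over the 6 libraries, the most abundant large subunit genes were Rpl35, Rpl41, Rpl13 and the stalk gene Rplp1, followed by Rpl32. Rpl35, which lies at the exit of the peptide tunnel, had 13054, 5420 and 7382 FPKM in GFP-minus and 6900, 4266 and 4735 FPKM in GFP-plus, with a difference of -0.64 (SE 0.29, limma adjusted p = 0.793). Its groups overlapped, since GFP-plus replicate 1 was above GFP-minus replicate 2. Rpl41, a very short basic peptide, had 12338, 4002 and 5338 FPKM in GFP-minus and 5009, 3910 and 3259 FPKM in GFP-plus. Rpl41 and Rplp1 were listed at exactly the same value in GFP-minus replicate 1, and each is uncertain there. Rpl13, at 6474, 3965 and 4156 FPKM in GFP-minus and 4411, 4234 and 3675 FPKM in GFP-plus, varied least among these 5. Its difference of -0.21 became 0.012 without GFP-minus replicate 1 and 0.29 after quantile normalization.

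Levels in GFP-plus lay below every GFP-minus library for 5 of the 77 core genes, Rpl38, Rpl27, Rps13, Rpl34 and Rpl32, against 2.44% of all genes. None lay wholly above, against 8.85%. With GFP-minus replicate 1 left out, the same 5 genes lay below, 6.49% of the core genes against 8.95% of all genes. Rpl38, a large subunit protein whose loss alters the axial skeleton in mice, had 8012, 1731 and 2600 FPKM in GFP-minus and 1712, 1673 and 1572 FPKM in GFP-plus. The difference was -0.9999 (SE 0.45, limma adjusted p = 0.793) and -0.36 without GFP-minus replicate 1. The gap between the lowest GFP-minus and the highest GFP-plus library was small.

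Rpl27, a large subunit protein mutated in some families with Diamond-Blackfan anemia, had 1571, 577 and 755 FPKM in GFP-minus and 574, 541 and 398 FPKM in GFP-plus, again with the groups nearly touching. The difference of Rpl27 was -0.82 (SE 0.46, limma adjusted p = 0.793). Rpl34 was listed at a lower level, at 459, 232 and 313 FPKM in GFP-minus and 202, 218 and 199 FPKM in GFP-plus. Rpl34-ps1, by its name a pseudogene of Rpl34, lies outside the naming rule. It was listed at 3590, 1087 and 1404 FPKM in GFP-minus and 1768, 1100 and 876 FPKM in GFP-plus, and its groups overlapped. Its difference was -0.56, or -0.05 without GFP-minus replicate 1. How reads were divided between Rpl34 and Rpl34-ps1 was not tested. Rpl32 had 6868, 3241 and 3279 FPKM in GFP-minus and 3204, 2778 and 2391 FPKM in GFP-plus. In Rpl34 and Rpl32 too, GFP-minus replicate 1 was the highest library and replicate 2 the lowest of its group. Rps13, the member of the small subunit among the 5, had 1905, 589 and 604 FPKM in GFP-minus and 540, 467 and 510 FPKM in GFP-plus.

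**Figure D4:**
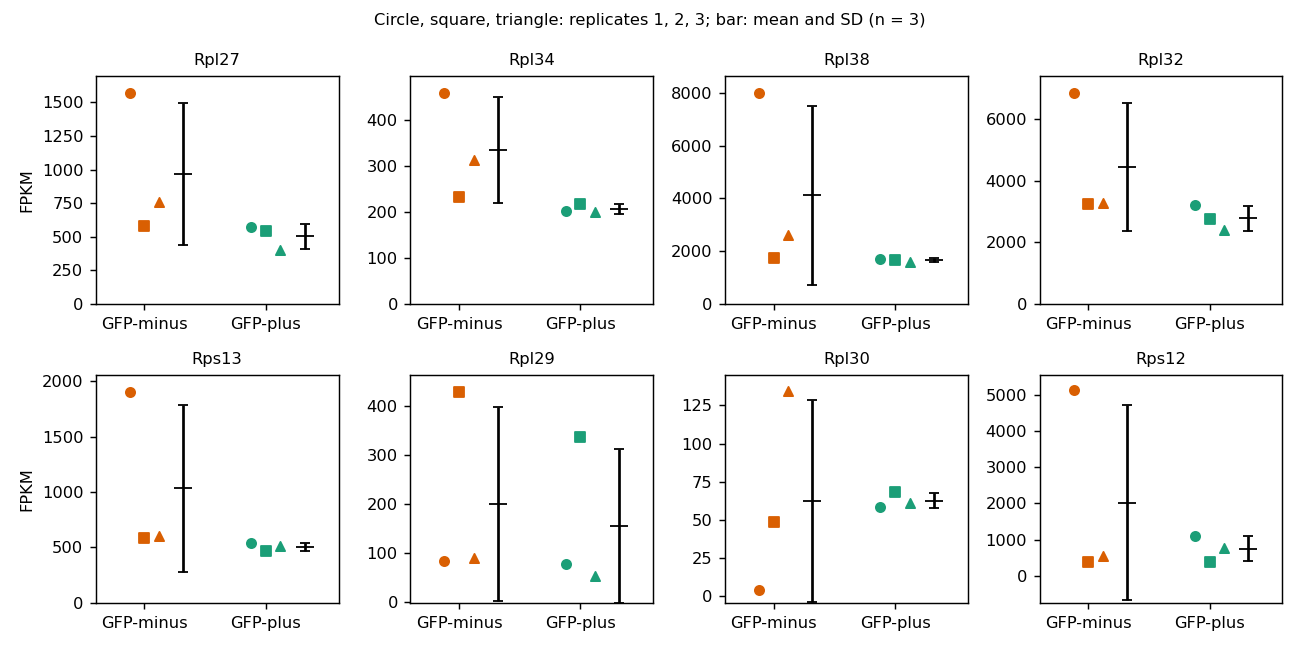
FPKM of 8 ribosomal protein genes in each library, 1 panel per gene, with replicates 1, 2 and 3 as circle, square and triangle and the bar as group mean and SD (n = 3). In Rpl27, Rpl34, Rpl38, Rpl32 and Rps13 the 3 GFP-plus points lie just below the lowest GFP-minus point and GFP-minus replicate 1 is highest, while Rpl29 is high in both replicate 2 libraries and Rpl30 is lowest in GFP-minus replicate 1.

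Other large subunit genes with a low difference were Rpl37a, a zinc-binding protein, and Rpl36a. Rpl37a had 7374, 1448 and 1675 FPKM in GFP-minus and 1537, 1454 and 1332 FPKM in GFP-plus, a difference of -0.86 that came to -0.11 without GFP-minus replicate 1. Rpl36a had 2320, 530 and 682 FPKM in GFP-minus and 802, 471 and 374 FPKM in GFP-plus, a difference of -0.86, or -0.21 without that library. In both genes a single library carried most of the difference.

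The lowest core genes of the large subunit were Rpl26 and Rpl30. Rpl26, known for binding p53 mRNA, had 36.2, 21.9 and 64.0 FPKM in GFP-minus and 54.9, 32.9 and 55.4 FPKM in GFP-plus, and both replicate 3 libraries lay above the other 4, against 5.26% of all genes. Its difference of 0.32 was -0.14 after upper-quartile scaling and -0.16 after median-of-ratios scaling. Rpl30 had 3.72, 48.7 and 134 FPKM in GFP-minus and 58.5, 68.3 and 61.0 FPKM in GFP-plus. It was the core gene with the highest difference, 1.00 (SE 1.19, limma adjusted p = 0.828), which became -0.37 without GFP-minus replicate 1. In that library Rpl30 was far below all others, opposite to most of the family.

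In the small subunit the most abundant genes were Rps14, Rps19, Rps18 and Rps25. Rps14, whose loss underlies the anemia of the 5q- syndrome, had 11339, 4335 and 5338 FPKM in GFP-minus and 5124, 4216 and 4436 FPKM in GFP-plus. Rps19, also a gene of Diamond-Blackfan anemia, had 5803, 3576 and 4278 FPKM in GFP-minus and 3257, 3878 and 2671 FPKM in GFP-plus. In Rps14 and Rps19 the groups overlapped, with GFP-minus replicate 1 on top. Rps18 ran from 2898 to 6211 FPKM in GFP-minus and from 2720 to 3224 FPKM in GFP-plus, and Rps25 from 2059 to 4873 FPKM and from 2210 to 3026 FPKM. After quantile normalization the differences of Rps14, Rps18 and Rps25 were above 0, at 0.035, 0.038 and 0.18.

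The lowest differences in the small subunit were those of Rps28, Rps21, Rps27a and Rps13. Rps28 had 7134, 1202 and 2130 FPKM in GFP-minus and 1661, 1244 and 1265 FPKM in GFP-plus, a difference of -0.93 (SE 0.51, limma adjusted p = 0.793) and of -0.22 without GFP-minus replicate 1. Rps27a, which is made as a fusion with ubiquitin, had 2868, 615 and 868 FPKM in GFP-minus and 685, 575 and 682 FPKM in GFP-plus. Rps21 had 3258, 592 and 820 FPKM in GFP-minus and 889, 540 and 544 FPKM in GFP-plus. In all 3 the groups overlapped, with or without the high library.

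Rpsa, a small subunit protein that also serves as a laminin receptor, had 2663, 466 and 521 FPKM in GFP-minus and 818, 542 and 633 FPKM in GFP-plus. Its 3 GFP-plus libraries lay between GFP-minus replicate 1 and the other 2. The difference of -0.40 became 0.41 without GFP-minus replicate 1 and 0.053 after quantile normalization. Rps4x, an X-linked small subunit gene, did the same, at 4200, 1000 and 848 FPKM in GFP-minus and 1563, 1040 and 1403 FPKM in GFP-plus, with a difference of -0.21, of 0.51 without that library and of 0.24 after quantile normalization. Rpsa and Rps4x were the 2 core genes with every GFP-plus library above the GFP-minus ones once that library was left out, against 10.8% of all genes.

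Rps3 and Rps15 had the differences nearest 0 in the small subunit. Rps3, which lines the mRNA entry channel, had 1150, 766 and 750 FPKM in GFP-minus and 910, 801 and 735 FPKM in GFP-plus, and its difference of -0.10 was 0.31 after quantile normalization. Rps15 ran from 2102 to 4527 FPKM in GFP-minus and from 1819 to 3456 FPKM in GFP-plus, and its difference of -0.16 was 0.33 after quantile normalization. Rps15a was listed as the least abundant small subunit gene, at 181, 42.5 and 51.4 FPKM in GFP-minus and 66.7, 34.2 and 47.7 FPKM in GFP-plus. By name, Rps15a-ps6 and Rps15a-ps4 are pseudogenes of it. Rps15a-ps6 was listed at 160, 34.4 and 63.6 FPKM in GFP-minus and 56.0, 28.8 and 63.7 FPKM in GFP-plus. Rps15a-ps4 had 85.5, 27.2 and 35.9 FPKM, and 36.9, 21.2 and 33.1 FPKM. How reads were divided among these entries was not tested, so the level of Rps15a is uncertain. Rps12, chosen after its values were seen, had 5157, 385 and 530 FPKM in GFP-minus and 1084, 389 and 764 FPKM in GFP-plus. At 8.18 times the mean of the other 5 libraries, it had the largest excess in GFP-minus replicate 1 of the 77 core genes, and its difference of -0.57 became 0.60 without that library.

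Large and small subunit genes kept nearly the same proportion in all libraries. Core large subunit genes gave 52.4%, 55.0% and 53.1% of the summed ribosomal FPKM in GFP-minus and 52.6%, 53.6% and 52.2% in GFP-plus. The small subunit gave 45.0%, 42.4% and 43.9%, and 44.9%, 43.8% and 44.5%. On the log2 scale the mean large subunit gene lay below the mean small subunit gene by 0.98 in GFP-minus replicate 1 and by 0.48 to 0.65 in the other 5 libraries. The group means of large minus small were -0.66 ± 0.28 in GFP-minus and -0.58 ± 0.07 in GFP-plus (SD, n = 3). Their difference of 0.08 was smaller than the spread within GFP-minus. It was -0.08 without GFP-minus replicate 1 and 0.17 without GFP-minus replicate 2, and quantile normalization left -0.0008.

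Each gene's share of the ribosomal sum in its library does not depend on how libraries are scaled. Over the 77 core genes the median size of the change in share between groups was 0.18 on the log2 scale. Shares did not overlap between groups in 4 core genes, lower in GFP-plus for Rpl27 and Rpl38 and higher for Rpl7a and Rpl6. Of all genes tested, taken relative to the same sum, 0.934% were lower and 10% higher without overlap. Rpl38 made up 2.97%, 1.80% and 2.17% of the sum in GFP-minus and 1.43%, 1.77% and 1.71% in GFP-plus. Rpl6 made up 0.43%, 0.53% and 0.61% in GFP-minus and 0.71%, 0.69% and 0.71% in GFP-plus. Rpl7a made up 0.20%, 0.42% and 0.44%, and 0.61%, 0.62% and 0.48%. Rpl6 and Rpl7a, both proteins of the large subunit, were named after their values were seen. Their FPKM values overlapped between groups, so the separation was in the share alone.

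The -like paralogs gave 2.61%, 2.57% and 2.92% of the ribosomal sum in GFP-minus and 2.47%, 2.56% and 3.32% in GFP-plus. Most of it came from Rps27l, a p53 target, which had 5060, 1884 and 2724 FPKM in GFP-minus and 2330, 1855 and 2630 FPKM in GFP-plus. Rps27 itself, a zinc-binding small subunit protein, had 1828, 813 and 1963 FPKM in GFP-minus and 2246, 1013 and 639 FPKM in GFP-plus. The paralog was therefore listed above its core gene in every library, at 277%, 232% and 139% of it in GFP-minus and 104%, 183% and 411% in GFP-plus. These ratios carry the uncertainty from Rps27rt, which was listed at 3511, 1487 and 1499 FPKM in GFP-minus and 1749, 1325 and 1614 FPKM in GFP-plus.

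Rpl22l1, a paralog of the RNA-binding protein Rpl22, had 1877, 420 and 545.9 FPKM in GFP-minus and 552, 373 and 329 FPKM in GFP-plus. Rpl22 had 343, 102 and 130 FPKM in GFP-minus and 157, 83.7 and 103 FPKM in GFP-plus. The paralog was thus the more abundant of the pair everywhere, at 548%, 411% and 419% of Rpl22 in GFP-minus and 352%, 446% and 320% in GFP-plus. The log2 ratio was 2.18 ± 0.23 in GFP-minus and 1.87 ± 0.25 in GFP-plus (SD, n = 3), a difference of -0.31. An exact 2-sided permutation test gave p = 0.30, adjusted p = 1.0 over the 4 pairs tested, and cannot go below 0.1 with 3 libraries against 3.

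Rpl7l1, which takes part in the assembly of the large subunit, had 91.1, 65.8 and 93.0 FPKM in GFP-minus and 34.4, 101 and 42.6 FPKM in GFP-plus. That was 2.39%, 5.90% and 8.27% of Rpl7 in GFP-minus and 2.39%, 9.75% and 3.24% in GFP-plus. Rps4l, annotated in GENCODE as a transcribed processed pseudogene, was listed at 0, 102 and 137 FPKM in GFP-minus and at 53.3, 89.3 and 55.4 FPKM in GFP-plus. It was at 0 in the library where Rps4x was highest, at 4200 FPKM. Exact 2-sided permutation tests of the log2 ratio gave p = 1.0 for each of Rps27l, Rpl7l1 and Rps4l with their core genes. Over these 4 pairs the median difference in log2 ratio was -0.13. It came to -0.44, -0.02 and -0.09 without GFP-minus replicates 1, 2 and 3, to 0.31, -0.22 and -0.10 without GFP-plus replicates 1, 2 and 3, and to -0.48 with library weights. Its direction thus turned without GFP-plus replicate 1. The 3 paralogs of other tissues were at or near 0: Rpl39l was listed at 0 in all 6 libraries, Rpl3l reached 0.04 FPKM in GFP-plus replicate 3 alone and Rpl10l 0.04 FPKM in GFP-minus replicate 1 alone. Their core genes Rpl39, Rpl3 and Rpl10 lay between 482 and 2787 FPKM.

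**Figure D5:**
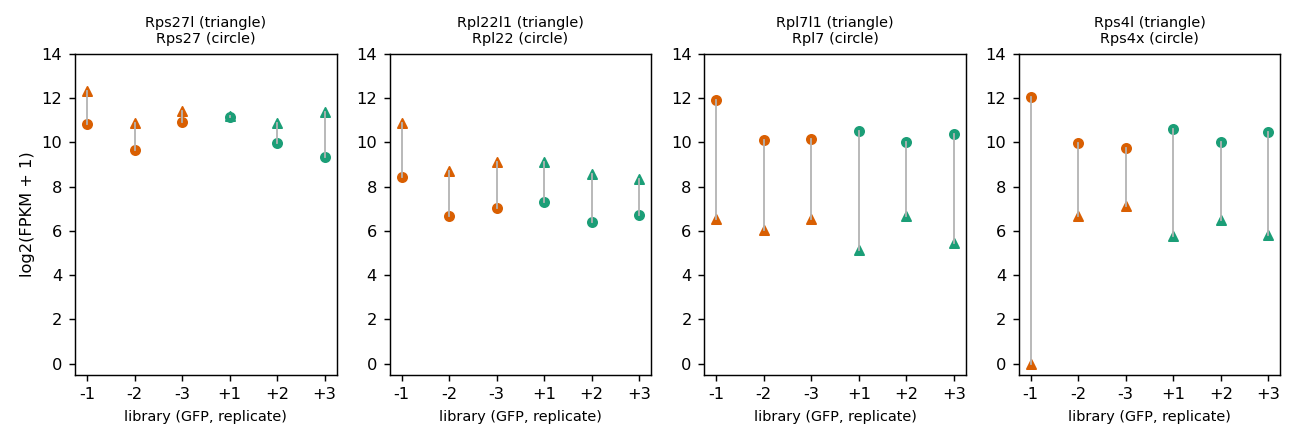
Level, as log2(FPKM + 1), of 4 -like paralogs (triangles) and of the core gene of the same number (circles) in each of the 6 libraries, GFP-minus as - and GFP-plus as + with the replicate number. Rps27l and Rpl22l1 lie above their core genes in every library, and Rpl7l1 and Rps4l lie below. The Rps27 values leave out Rps27rt, which has the same coding sequence.

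Related genes outside the naming rule were read from lists in the same fit, and none of their genes was called by limma. Of 16 other mRNAs of the TOP class, mainly translation factors, 7 had a difference below 0, against 31.4% of all genes, and the median was 0.13. Eef2, the translocation factor, was the 1 gene of these 16 whose GFP-plus libraries all lay above (6.25%, against 8.85% of all genes). It stood at 234, 143 and 127 FPKM in GFP-minus and 280, 240 and 257 FPKM in GFP-plus. Of 40 ribosome assembly genes, 17 had a difference below 0, against the same 31.4%. Their median was 0.39 with all libraries and -0.13 without GFP-minus replicate 1, in which 7 of the 40 were listed at 0. The groups did not overlap in 5 of the 40, lower in GFP-plus for Ebna1bp2, Nip7 and Rrp1 (2.44% of all genes) and higher for Sbds and Tsr1 (8.85% of all genes).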

How the data were processed

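RNA was measured in 6 libraries, 3 GFP-minus and 3 GFP-plus, made with the SMART-Seq v4 kit directly from sorted cells, per the labels' protocols. The authors deposited 1 table of FPKM values; its title calls them counts, but they are not whole numbers. The submitters' processing notes name the mm9 build, Cufflinks 2.2.1, STAR 2.5 and DESeq2, without role or order. Gene models and strandedness are not stated there. Because the reference at hand was GRCm38, coordinates and sequences belong to that build and not to the deposited values. Of 24043 rows, 27 with date-like names were left out.

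Values were analysed as log2(FPKM + 1), which understates changes of low genes. Genes averaging 1 FPKM or more in the 6 libraries (9423) entered a test in limma 3.58.1 (R 4.3.3) with a mean-variance trend and group as the only term, on all 6 libraries, with Benjamini-Hochberg adjustment and calls below 0.05. Ratios of paralogs were compared by exact 2-sided permutation tests. Depth was estimated from the smallest steps of FPKM times length, and is approximate. Near-identical copies make values of this family uncertain. Differences without a library come from the same fit with that library removed.

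Named genes were the -like paralogs with their core genes, Rplp0, Rplp1, Rplp2, Rpsa, in each subunit the 4 most and 2 least abundant genes, the 4 with the lowest and 2 with the highest difference, and core genes whose groups did not overlap. The members, lists and tests were chosen with earlier results of these data known. Alternatives changed the pseudocount (0.1, 5), filter, scaling, weights and block, and left out libraries. The limma fit was tested on simulated data with large changes and the same spread in every gene. That test does not show which changes could be detected in these libraries. A short list of related genes is not reported here.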

Additional observations from a re-analysis of the deposited data

How the results depend on the processing

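No ribosomal protein gene was called under any setting tried; the lowest adjusted p was 0.394 with limma and the replicate block, and with library weights 8 of all genes were called. With each library left out in turn the number called was 0 to 0, the median difference ran from -0.72 to -0.13 (large subunit) and from -0.85 to -0.06 (small subunit), large minus small from -0.081 to 0.17, the paralog ratios from -0.44 to 0.31 and the median change in share from 0.14 to 0.25. Large minus small also turned from 0.08 to -0.0008 after quantile normalization, -0.047 with library weights and -0.047 without both replicate 1 libraries. Scaling moved the median of all genes from 0.63 to 0.48 (upper quartile), 0.44 (median of ratios), 0.71 (median of ratios over genes of at least 1 FPKM in all libraries, chosen after seeing the data) and 0.04 (quantile). The median of core genes moved from -0.49 to -0.95, -0.97, -0.35 and -0.07, below 0 in 76, 76, 69 and 46 of 77. The differences of named genes turned to the other side of 0 as follows. Quantile normalization: Rpl13 0.29, Rpl3 0.26, Rpl7 0.053, Rplp0 0.058, Rps14 0.035, Rps15 0.33, Rps18 0.038, Rps25 0.18, Rps27 0.085, Rps27l 0.0403, Rps3 0.31, Rps4x 0.24, Rpsa 0.053. Upper-quartile scaling: Rpl26 -0.14. Median of ratios: Rpl26 -0.16, and over genes of at least 1 FPKM Rps3 0.037. Library weights: Rpl26 -0.18, Rpl29 0.035, Rpl3 0.29, Rpl30 -0.59, Rpl7 0.064, Rps12 0.28, Rps3 0.097, Rps4l -0.61, Rps4x 0.47, Rpsa 0.24. Without both replicate 1 libraries: Rpl3 0.17, Rpl30 -0.32, Rpl7 0.0624, Rps12 0.27, Rps3 0.017, Rps4l -0.74, Rps4x 0.39, Rpsa 0.25. Ranges over single libraries left out: Rpl13 -0.34 to 0.012, Rpl26 -0.051 to 0.70, Rpl29 -1.19 to 0.36, Rpl3 -0.45 to 0.22, Rpl30 -0.37 to 2.05, Rpl7 -0.72 to 0.16, Rps12 -1.27 to 0.60, Rps15 -0.41 to 0.15, Rps15a -1.004 to 0.03, Rps25 -0.60 to 0.023, Rps27 -0.83 to 0.078, Rps3 -0.21 to 0.099, Rps4l -0.87 to 2.68, Rps4x -0.64 to 0.51, Rpsa -0.85 to 0.41. The cause was not tested. Same-numbered libraries share a code in their sample names, whose meaning the labels do not give. Deviations from the group means correlated across all genes at 0.13, 0.17 and 0.0089 for replicates 1, 2 and 3. Among core genes the values were 0.40, 0.77 and 0.07. Not every library correlated best with its own number, and the libraries were not taken as paired in the main fit. With 3 libraries in each group these correlations cannot exclude pairing. With the replicate number as a block, 0 of 9423 genes were called, 0 without it. The medians of -0.44 and -0.49 cannot change with this block, since each replicate number has 1 library of each group. The number of libraries limits the precision; no counting intervals can be given for FPKM.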
